A study of Mus musculus with 18 samples.

Results

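The genes of the Piezo and Tmem63 mechanosensitive channels were followed in lumbar dorsal root ganglia (DRG) of mice after tibial fracture. The group held 6 of the 36737 genes in the count table, namely Piezo1, Piezo2, Tmem63a, Tmem63b, Tmem63c and Tmem120a, and all 6 were matched by gene symbol. Piezo1 was selected on its counts in these same libraries, which were clearly lower after fracture than after sham surgery, and the other 5 genes were added as a contrast. The values of fracture against sham therefore describe the genes that they selected, and no test of the 6 genes is drawn from that contrast.

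Bulk RNA-seq was performed on L3–L5 DRG from adult CD1 mice, an outbred strain, which gave 18 libraries, each from a single mouse. Sham mice had sham surgery, Fracture mice had a tibial fracture with vehicle, and Fracture+PDX mice had the same fracture with Protectin DX (PDX), a lipid mediator that promotes the resolution of inflammation. Each group held 6 mice, 3 males and 3 females, and no mouse is described as carrying a transgene or deletion. The ganglia of both fracture groups were taken on day 3, while the day of the sham mice and the dose and schedule of PDX for these mice are not given in the sources used here.

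PIEZO1 and PIEZO2 are very large proteins that assemble into cation channels opened by membrane tension. PIEZO2 is the main touch and position sensor of large sensory neurons, whereas PIEZO1 is best known from endothelium, red blood cells and other cells exposed to flow and pressure, and has been linked to itch neurons. TMEM63A, TMEM63B and TMEM63C are relatives of the plant OSCA channels and respond to stretch and osmotic change, and TMEM120A, also called TACAN, was proposed as a channel for mechanical pain, a role that has been disputed.

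Per the deposited coordinates of build mm10, Piezo1 (ENSMUSG00000014444) lay at chr8:122481698-122551329 on the minus strand and Tmem63c (ENSMUSG00000034145) at chr12:87021340-87090043 on the plus strand. Tmem63a lay on chromosome 1, Tmem63b on chromosome 17 and Tmem120a on chromosome 5. The 250 bases upstream of the RefSeq start of Piezo1 and of the first start of Tmem63c are printed because Piezo1 is the gene around which the group was chosen, Tmem63c is the other member called in fracture plus PDX against sham, and their start regions differed in base composition. Both are read 5′ to 3′ on the strand of the gene from GRCm38.p6, the Piezo1 window at chr8:122551330-122551579 and the Tmem63c window at chr12:87021090-87021339. Capitals mark a GC box (GGGCGG, or CCGCCC for the other strand) and the TATA motif (TATAAA, or TTTATA for the other strand).
Piezo1 upstream: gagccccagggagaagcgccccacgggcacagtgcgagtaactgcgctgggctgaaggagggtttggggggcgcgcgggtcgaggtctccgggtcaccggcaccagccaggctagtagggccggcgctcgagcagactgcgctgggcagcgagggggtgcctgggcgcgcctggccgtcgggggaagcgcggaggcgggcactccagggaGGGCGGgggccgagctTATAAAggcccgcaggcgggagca
Tmem63c upstream: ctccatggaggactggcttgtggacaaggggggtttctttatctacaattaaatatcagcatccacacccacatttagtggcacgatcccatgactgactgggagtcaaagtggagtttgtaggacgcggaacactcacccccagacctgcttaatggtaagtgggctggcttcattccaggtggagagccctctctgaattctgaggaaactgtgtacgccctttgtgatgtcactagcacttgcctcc
The Piezo1 window held 26 CG dinucleotides and 74.0% G and C, with 1 GC box and 1 TATAAA on the strand of the gene. The Tmem63c window held 4 CG dinucleotides and 50.8% G and C, with neither motif on either strand. Over 32851 RefSeq promoter windows of the same length, the median was 6 CG dinucleotides, 32.74% held a GC box on either strand and 12.37% held the TATA motif. The windows of Tmem63a, Tmem63b and Tmem120a held 23, 31 and 27 CG dinucleotides, and that of Piezo2 was not read. Tmem63c, near the median, thus stood apart from the other 4 members read here. Windows with fewer CG dinucleotides made up 37.8% of all for Tmem63c and 86.7% to 94.8% for the other 4. The other annotated start of Tmem63c had 5 CG dinucleotides and a TATA motif on each strand, which overlapped each other. These matches describe letters in a window and show no binding.

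The members covered a wide range of levels in the ganglia. Levels of different genes were compared only per transcript length, as FPKM, fragments scaled to transcript length and to the mapped fragments of the library. Tmem63b had the highest mean level, 35.7 ± 1.03 FPKM (SD, n = 18), and ranged from 34.1 to 37.5. Tmem63c had a mean of 20.3 ± 1.22 FPKM and Piezo2 a mean of 20.2 ± 1.74 FPKM (SD, n = 18), with ranges that overlapped. Tmem63c was above Piezo2 in 7 of 18 libraries, so the order of this pair is not resolved. Tmem120a followed at 10.7 ± 0.839 FPKM and Tmem63a at 7.42 ± 1.09 FPKM (SD, n = 18). Piezo1 was lowest, with a mean of 1.54 ± 0.234 FPKM (SD, n = 18). Each remaining pair of neighbours in this order was separated in 18 of 18 libraries without overlap. Library-scaled counts divided by the exon length of the GENCODE M21 gene models gave the same order.

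**Figure D1:**
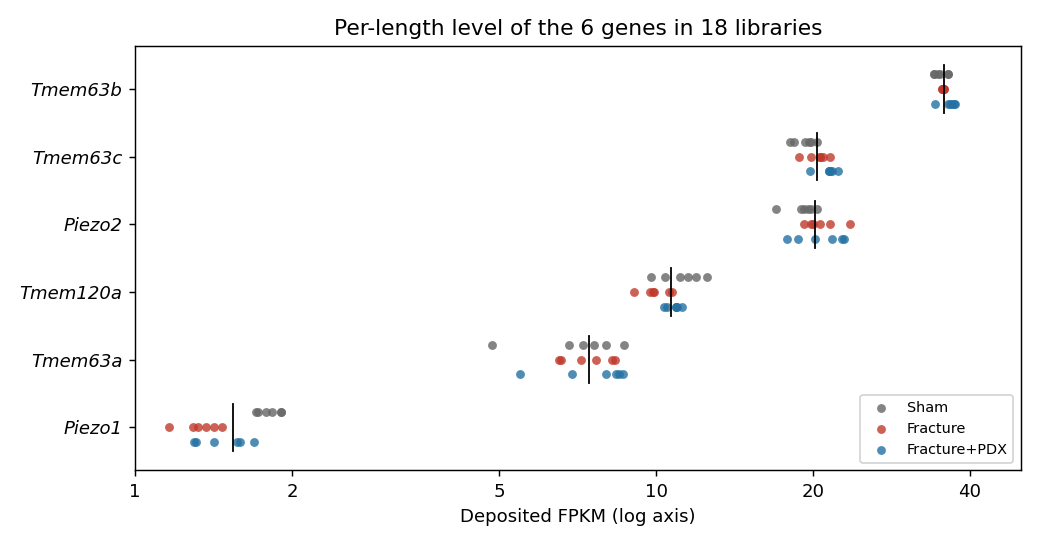
Deposited FPKM (log axis) of the 6 genes in 18 libraries, 1 point per library coloured by group, with a vertical line at the mean of all libraries. Tmem63b sits highest at 34.1 to 37.5 FPKM, Tmem63c and Piezo2 share a range near 20.3 FPKM, and Piezo1 sits lowest at 1.16 to 1.91 FPKM with the sham points on the right.

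Among the 13325 genes with a mean of at least 1 FPKM, 90.6% were below Tmem63b, 82.7% below Piezo2 and 9.94% below Piezo1. The touch channel Piezo2 was thus far above its paralog at the level of the whole ganglion. The ratio of Piezo2 to Piezo1 FPKM was 10.6 ± 0.744 in sham mice, 15.6 ± 1.90 in fracture mice and 14.1 ± 2.16 in fracture plus PDX mice (SD, n = 6 each). Within the Tmem63 family, Tmem63b made up 56.3% ± 1.36, Tmem63c 32.0% ± 1.24 and Tmem63a 11.7% ± 1.52 of the summed FPKM (SD, n = 18). These shares were similar in the 3 groups, with means of 55.7% to 57.1% for Tmem63b.

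The variation between mice also differed among the members. On the scale of TMM-scaled CPM, the counts of a gene relative to the effective size of its library, which is used for the fits below, the coefficient of variation over 18 libraries was 3.37% for Tmem63b and 14.4% for Tmem63a. Piezo1 had 14.8% over all libraries but 5.69% within the sham group, 8.18% within the fracture group and 10.6% within the fracture plus PDX group. Libraries held 63235040 to 82824942 counts on genes, and the lowest member total in a library was 991 counts of Piezo1. All 6 members passed the filter on low counts in every fit, and the sex-linked transcripts matched the sex on the label in 18 of 18 libraries.

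Few of the 6 members were called, that is, had a p-value from the quasi-likelihood test of edgeR that stayed under 0.05 once adjusted over all genes by the method of Benjamini and Hochberg. Between fracture and sham, 1 of 6 members was past this threshold, Piezo1, beside 2.92% of 20659 genes, and since this contrast selected Piezo1 nothing is read from the count. Between fracture plus PDX and fracture, 0 of 6 members were called, and the same test called 0% of 20562 genes. At an unadjusted p-value under 0.05, edgeR counted 2 of the 6 members and 1113 genes there. At an adjusted p-value under 0.05, DESeq2 called 0 members and 21 genes. Between fracture plus PDX and sham, 2 of 6 members were called, Piezo1 lower and Tmem63c higher, beside 4.5% of 20574 genes. The 3 comparisons share libraries in pairs and are not independent of each other: both comparisons with PDX use the sham or the fracture libraries by which Piezo1 was selected. Its values there are therefore also given as a description, and nothing is read from its part in the count.

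**Figure D2:**
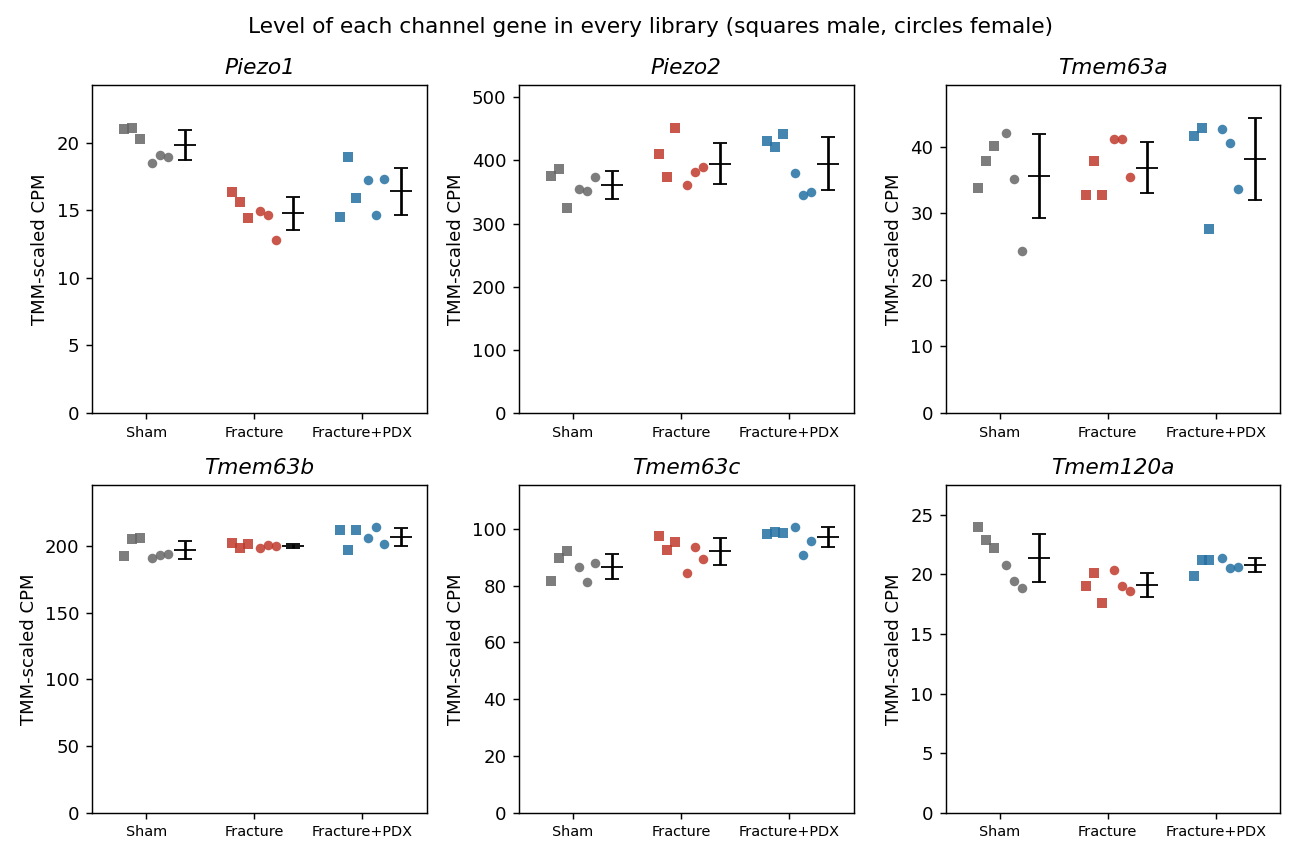
TMM-scaled CPM of each gene in every library (vertical axes start at 0), by group, with squares for males, circles for females and bars for the mean ± SD of 6 mice. The 6 fracture points of Piezo1 (12.8 to 16.3 CPM) lie below the 6 sham points (18.5 to 21.1 CPM), and the points of the other 5 genes overlap between all groups.

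Piezo1, the channel of endothelium and blood cells, had 18.5, 19.7 and 21.1 CPM as the lowest, median and highest value in sham mice. The fracture mice had 12.8, 14.8 and 16.3 CPM, and the fracture plus PDX mice had 14.5, 16.6 and 18.9 CPM. Every fracture mouse was below every sham mouse, while 5 of 6 fracture plus PDX mice were below every sham mouse and the remaining one overlapped the sham range. As a description, the mean was 19.8 ± 1.13 CPM in sham mice and 14.8 ± 1.21 CPM in fracture mice (SD, n = 6 each), a log2 fold change of -0.42 (SE 0.053). This value ranged from -0.44 to -0.39 when 1 library was left out and from -0.42 to -0.27 over the other alternative fits. The difference was similar in both sexes, with a log2 difference of -0.43 among males and -0.42 among females (3 mice a group). In bulk tissue, fewer cells of a type and less RNA per cell cannot be told apart.

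With PDX the mean of Piezo1 was 16.4 ± 1.73 CPM (SD, n = 6). It lay between the means of the other groups. Against fracture, the log2 fold change was 0.15 with a 95% confidence interval from -0.01 to 0.32, again as a description. Of the 6 fracture plus PDX mice, 3 were above every fracture mouse. Against sham, the log2 fold change was -0.27 (SE 0.069), a description as well, since the same 6 sham libraries served to select Piezo1. Its place among the 2 members counted above rested on an adjusted p = 0.0444 in edgeR, close to the threshold. Leaving out any 1 of 10 of the 12 libraries moved the adjusted p to between 0.0575 and 0.107, with a log2 fold change of -0.29 to -0.22, and the call was kept only without Fracture+PDX male replicate 2 (0.0302) or female replicate 3 (0.0406). Without a filter on low counts it was 0.0503, and on log2(FPKM + 1) with limma it was 0.129.

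Piezo1 shares 2441 exon bases with Ctu2, a tRNA-modifying enzyme gene on the opposite strand, in GENCODE M21. The libraries keep strand, but whether the counting used it is not given in the sources used here, so reads of the shared bases could be split either way. Ctu2 had 16.0 ± 1.61 CPM in sham, 18.5 ± 1.34 CPM in fracture and 18.9 ± 2.29 CPM in fracture plus PDX mice (SD, n = 6 each). Its log2 fold change between fracture and sham was 0.21 (SE 0.075, adjusted p = 0.142 in edgeR), with the opposite sign to that of Piezo1. Of the other members, Tmem63b shares 106 exon bases with Mrpl14 and 288 with Gm16172, and Tmem63a shares 157 with 2210411M09Rik, all on the opposite strand.

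Piezo2, the touch and position channel, had 325, 365 and 387 CPM as the lowest, median and highest value in sham mice. The fracture mice had 362, 385 and 452 CPM, and the fracture plus PDX mice had 345, 400.4 and 442 CPM. The 3 groups overlapped, with 3 of 6 fracture mice and 3 of 6 fracture plus PDX mice above every sham mouse. The mean was 361 ± 22.4 CPM in sham, 395 ± 32.3 CPM in fracture and 395 ± 42.2 CPM in fracture plus PDX mice (SD, n = 6 each). As a description, the log2 fold change between fracture and sham was 0.13 (SE 0.053), opposite in sign to that of Piezo1. Fracture plus PDX against fracture gave -0.01 with a 95% confidence interval from -0.10 to 0.09, and an adjusted p = 0.997 in edgeR. Fracture plus PDX against sham gave 0.12 with an interval from 0.00 to 0.24 and an adjusted p = 0.269, and ranged from 0.07 (without Sham male replicate 3) to 0.15 when 1 library was left out.

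Tmem63b, the most abundant family member, was also the steadiest. It had 191, 194 and 206 CPM as the lowest, median and highest value in sham, 198, 200.2 and 202 CPM in fracture, and 196, 209 and 214 CPM in fracture plus PDX mice. All 6 fracture mice lay inside the sham range, and 4 of 6 fracture plus PDX mice were above every sham mouse. The log2 fold change was 0.03 (SE 0.025) between fracture and sham, as a description, 0.05 between fracture plus PDX and fracture (interval -0.01 to 0.10) and 0.07 between fracture plus PDX and sham (interval 0.01 to 0.14). Neither test was past the threshold, with an adjusted p = 0.917 and 0.22 in edgeR.

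Tmem63c, a family member enriched in nervous tissue and kidney, was higher with PDX than in sham mice. Sham mice had 81.4, 87.4 and 92.3 CPM as the lowest, median and highest value, fracture mice had 84.4, 93.1 and 97.6 CPM, and fracture plus PDX mice had 90.8, 98.4 and 100.5 CPM. The groups overlapped by few mice, since 5 of 6 fracture plus PDX mice were above every sham mouse. The log2 fold change of fracture plus PDX against sham was 0.17 (SE 0.038, adjusted p = 0.0256 in edgeR), with 0.17 among males and 0.16 among females. The call was lost without Sham female replicate 2 (adjusted p = 0.069), and without Fracture+PDX male replicate 2 (0.0533), male replicate 3 (0.0553) or female replicate 1 (0.0679). It was also lost with limma on log2(FPKM + 1) (0.117) and on log2(FPKM + 0.1). Against fracture the log2 fold change was 0.08 with an interval from 0.00 to 0.15 and an adjusted p = 0.912. Fracture against sham gave 0.09 (SE 0.04), as a description.

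Tmem63a, the family member linked to myelin, varied most within groups. It had 24.3, 36.5 and 42.0 CPM as the lowest, median and highest value in sham, 32.7, 36.6 and 41.2 CPM in fracture, and 27.7, 41.1 and 42.8 CPM in fracture plus PDX mice. The ranges overlapped almost fully, and the lowest values came from Sham female replicate 3 and Fracture+PDX male replicate 3. Its log2 fold change was 0.05 between fracture and sham (SE 0.12, as a description), 0.05 between fracture plus PDX and fracture (interval -0.17 to 0.28, adjusted p = 0.99 in edgeR) and 0.11 between fracture plus PDX and sham (interval -0.21 to 0.42, adjusted p = 0.767). This last value ranged from 0.01 without Sham female replicate 3 to 0.20 without Fracture+PDX male replicate 3. These intervals were the widest of the 6 members in the same comparisons.

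Tmem120a, the gene of TACAN, had 18.9, 21.5 and 23.9 CPM as the lowest, median and highest value in sham mice. The fracture mice had 17.6, 19.01 and 20.4 CPM, and the fracture plus PDX mice had 19.8, 20.9 and 21.3 CPM. The groups overlapped, with 2 of 6 fracture mice below every sham mouse and 5 of 6 fracture plus PDX mice above every fracture mouse. As a description, fracture against sham gave a log2 fold change of -0.15 (SE 0.06). Fracture plus PDX against fracture gave 0.12 with an interval from 0.02 to 0.22 and an adjusted p = 0.887 in edgeR, and fracture plus PDX against sham gave -0.03 with an interval from -0.15 to 0.08 and an adjusted p = 0.818.

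**Figure D3:**
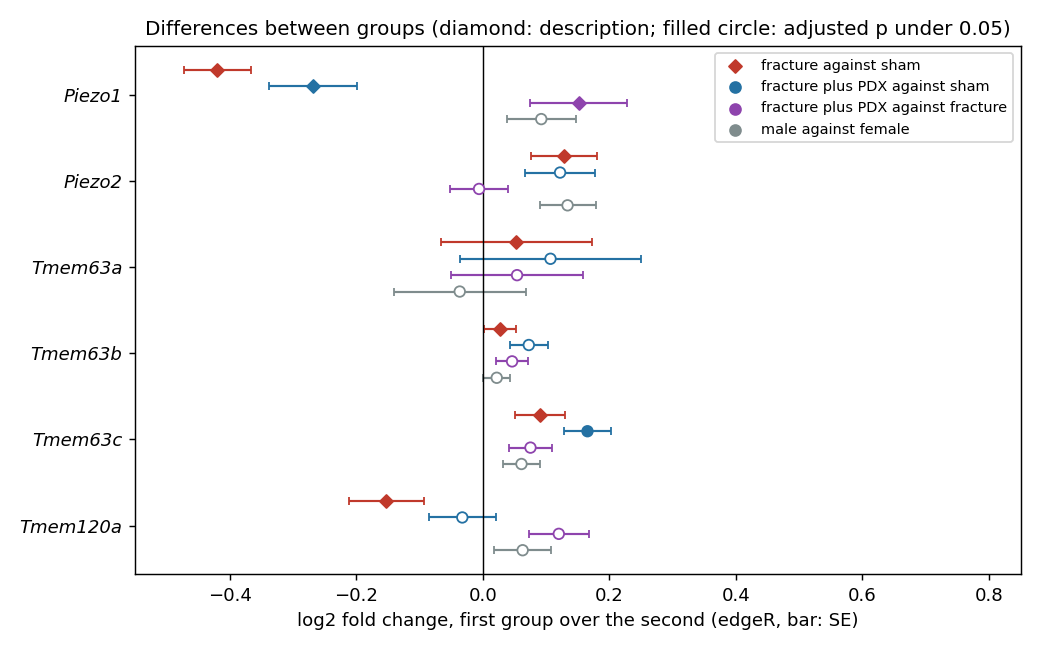
Fitted log2 fold change of each gene in 4 comparisons (horizontal axis, first group over the second, bars are the SE), with diamonds for values given as a description (fracture against sham, and Piezo1 in the comparisons with PDX) and filled circles where the adjusted p was under 0.05. The single filled circle is Tmem63c (0.17) for fracture plus PDX against sham.

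Sex was not used in choosing the genes. Between males and females over all 18 libraries, 0 of 6 members were called by edgeR, beside 0.291% of 21340 genes. DESeq2 also called 0 of 6, and 1 member, Piezo2, had an unadjusted p-value under 0.05 in edgeR. Piezo2 had a mean of 402 CPM in males and 365 CPM in females, a log2 fold change of 0.13 (interval 0.04 to 0.23, adjusted p = 0.252). By group, its mean in males and females was 363 and 360.4 CPM in sham, 412 and 377 CPM in fracture, and 431 and 358 CPM in fracture plus PDX mice (n = 3 each). The other 5 members had log2 fold changes of -0.04 to 0.09 between the sexes.

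No member had a change that differed between the sexes past the threshold. For the interaction of sex with fracture, edgeR called 0 of 6 members and 0% of 20659 genes, and 1 member, Tmem120a, had an unadjusted p-value under 0.05. Tmem120a had a log2 difference of -0.28 among males, where all 3 fracture mice were below all 3 sham mice, and of -0.03 among females. The interaction was -0.25 (interval -0.47 to -0.03, adjusted p = 0.637 in edgeR). For the interaction of sex with PDX, edgeR called 0 of 6 members beside 0.00486% of 20562 genes, with 0 of 6 members also at an unadjusted p-value under 0.05. DESeq2 called 0 of 6 members in both interactions.

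Proteins that bind or modulate these channels were followed as a list of 10 genes, of which 9 passed the filter on low counts and Stoml3, a stomatin-like tether of touch channels, did not. Between fracture and sham, 0 rose and 1 fell, with a list median log2 fold change of 0.07, beside a median of 0.00 over all genes tested, of which 2.92% were called. The gene that fell was Mdfi (log2 fold change -0.77, SE 0.19, adjusted p = 0.0446 in edgeR), a transcriptional inhibitor related to the PIEZO subunit gene Mdfic. Mdfi had 2.38 ± 0.402 CPM in sham and 1.39 ± 0.351 CPM in fracture mice (SD, n = 6 each), and its ranges did not overlap. Mdfic itself had a log2 fold change of -0.21 with an adjusted p = 0.171. Between fracture plus PDX and sham, 2 rose and 1 fell (list median -0.01), beside 4.5% of all genes called. Stom, encoding the membrane scaffold stomatin, rose by a log2 fold change of 0.33 (adjusted p = 0.037 in edgeR), the membrane-binding annexin gene Anxa6 rose by 0.12 (0.0302) and Mdfi fell by 0.80 on the log2 scale (0.00944).

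Of 13 other channels that open or were proposed to open on stretch, or that belong to the acid-sensing family, all 13 were tested. Between fracture and sham, 1 of 13 rose and 0 fell, with a list median of 0.08, beside 2.92% of all genes called. The acid-sensing channel gene Asic3 rose from 93.4 ± 11.8 to 113 ± 9.72 CPM (SD, n = 6 each), a log2 fold change of 0.28 (adjusted p = 0.0184 in edgeR). Between fracture plus PDX and sham, 1 rose and 0 fell (list median 0.02, beside 4.5% of all genes called), and the gene that rose was Kcnk10, a stretch-sensitive potassium channel (0.32, adjusted p = 0.0317).

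Genes of the flow response of endothelium and of YAP/TAZ signaling, which lie downstream of PIEZO1 in textbook accounts, had negative log2 fold changes against sham in both fracture groups. Of 9 genes, 0 rose and 3 fell between fracture and sham, beside 2.92% of all genes called, with a list median of -0.32 and a negative log2 fold change in 9 of 9. The flow-induced factor gene Klf2 fell by 0.71 on the log2 scale (adjusted p = 0.0378 in edgeR), the coactivator gene Yap1 fell by 0.32 (0.0162) and its target Ccn1 fell by 0.37 (0.0358). Between fracture plus PDX and sham, 0 rose and 4 fell, beside 4.5% of all genes called, with a list median of -0.32 and again 9 of 9 negative. Yap1 fell by 0.25 (adjusted p = 0.0187), Ccn2 by 0.36 (0.0379), the coactivator gene Wwtr1 by 0.27 (0.0426) and Ccn1 by 0.32 (0.0486), all by edgeR. In fracture plus PDX against fracture, no gene of the 3 lists was called. The comparisons with sham share the sham libraries, and the flow and YAP list was chosen with earlier results of these data known. Negative signs throughout were not particular to that list. Between fracture and sham, 8 of 8 macrophage, 6 of 6 fibroblast, 6 of 6 Schwann cell and 5 of 5 red blood cell markers were also negative. Whether the flow and YAP genes follow Piezo1 was not tested.

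**Figure D4:**
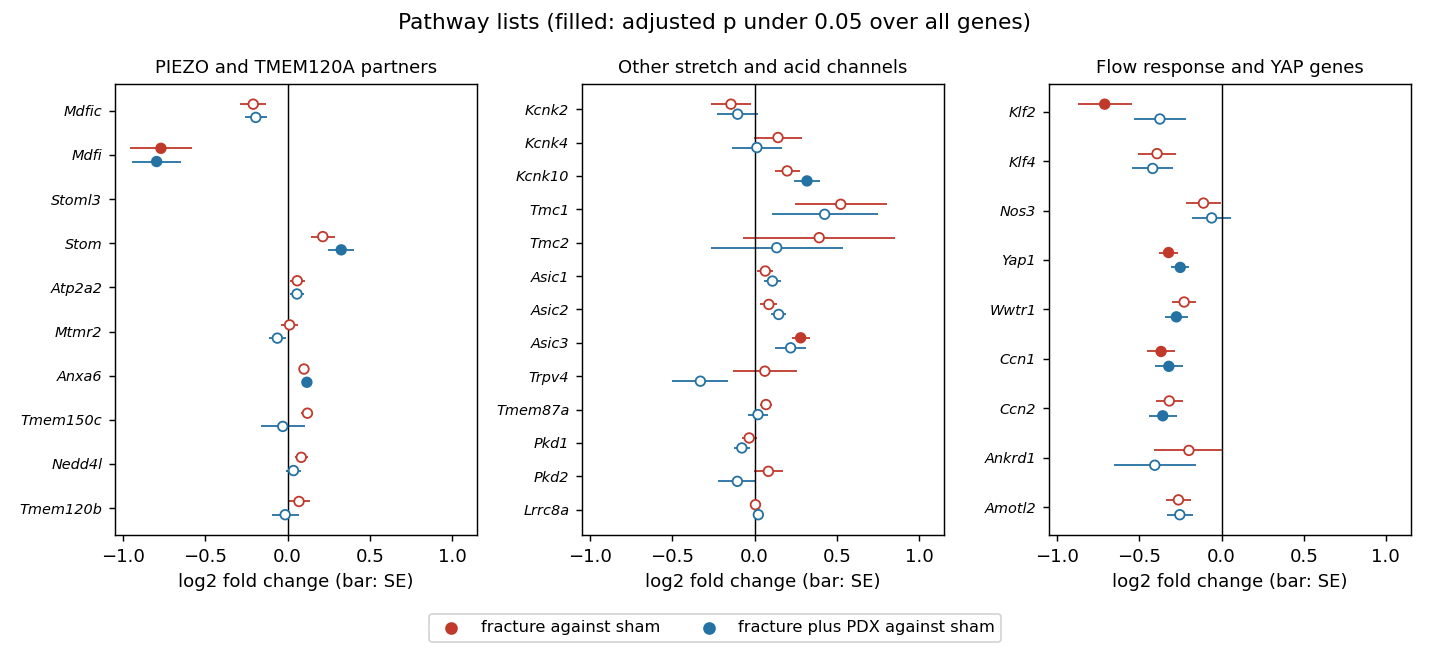
Fitted log2 fold change (horizontal axis, bars are the SE) of the genes of the 3 pathway lists in fracture against sham and in fracture plus PDX against sham, filled where the adjusted p was under 0.05. All points of the flow response and YAP list lie below 0, and Mdfi is the lowest point of the partner list at -0.77 and -0.80.

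Markers of several cell types moved between the same groups, beside 2.92% of all genes called in fracture against sham and 4.5% in fracture plus PDX against sham. The summed level of 12 endothelial markers was 224 to 270 CPM in sham, 200.2 to 231 CPM in fracture and 193 to 227 CPM in fracture plus PDX mice. Of these markers, 2 fell between fracture and sham, the adhesion gene Cdh5 (log2 fold change -0.73, adjusted p = 0.0117 in edgeR) and the VEGF receptor gene Flt1 (-0.71, 0.0171), and 0 rose. In fracture plus PDX against sham, 3 fell, namely Cdh5 (-0.74, 0.00216), Flt1 (-0.73, 0.00339) and Esam (-0.26, 0.0373). The list median was -0.06 between fracture and sham, far smaller than these values. Macrophage markers summed to 91.9 to 112 CPM in sham and 70.6 to 92.3 CPM in fracture mice, and 2 of 8 fell, Csf1r (-0.47, adjusted p = 0.00733) and Adgre1 (-0.56, 0.0139). All 8 had negative log2 fold changes between fracture and sham (median -0.28). In fracture plus PDX against sham, Csf1r was the 1 of 8 that fell (-0.34, 0.00431), and 3 of 8 had positive log2 fold changes.

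Of 9 neuronal markers, 3 rose between fracture and sham and 6 did not pass the threshold, while 9 of 9 had a positive log2 fold change (median 0.12). Their sum was 9505 to 10312 CPM in sham, 10701 to 10900 CPM in fracture and 10402 to 11250 CPM in fracture plus PDX mice, so that both fracture groups lay above the sham range. The 3 that rose were Tubb3 (0.17, adjusted p = 0.0126 in edgeR), Uchl1 (0.14, 0.0212) and Stmn2 (0.18, 0.0273), and with PDX against sham 4 rose, the same 3 genes and Rbfox3 (0.18, 0.0147). Among 6 markers of large-diameter neurons, where PIEZO2 acts, Nefh rose after fracture (0.22, adjusted p = 0.0126), and all 6 had positive log2 fold changes. With PDX against sham 0 of these 6 were called (Nefh 0.18, adjusted p = 0.0965 in edgeR). No marker was at 0 in any library, the lowest being Tnni2 of skeletal muscle with 32 counts. The part of cell composition in the members' values was not tested.

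The remaining lists gave few calls. Dcn was the 1 of 6 fibroblast markers that fell between fracture and sham (-0.33, adjusted p = 0.0331 in edgeR), and with PDX against sham Sox10 was the 1 of 6 Schwann cell markers that fell (-0.15, 0.0483). Kcnj10 was the 1 of 4 satellite glial markers that rose there (0.27, 0.0493), while 2 of the 4 had negative log2 fold changes. All 6 fibroblast markers had negative log2 fold changes between fracture and sham and with PDX against sham (medians -0.23 and -0.25). The same held for all 6 Schwann cell markers (medians -0.22 and -0.20). Mural cell, nociceptor, red blood cell and skeletal muscle markers gave 0 calls in these comparisons. Skeletal muscle markers varied widely between libraries, from 28.7 to 558 CPM in sham, 48.8 to 1080 CPM in fracture and 13.8 to 473 CPM in fracture plus PDX mice. All 7 had positive log2 fold changes between fracture and sham (median 2.04) and all 7 had negative ones between fracture plus PDX and fracture (median -1.91), the largest medians of the 14 lists in these comparisons, without a call. Red blood cell markers summed to 530 to 1476 CPM in sham, 697 to 934 CPM in fracture and 353 to 2065 CPM in fracture plus PDX mice. All 5 had negative log2 fold changes between fracture and sham (median -0.53) and positive ones between fracture plus PDX and fracture (median 0.29). In fracture plus PDX against fracture, no marker of any list was called.

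Within groups, the members did not follow a marker list past correction. The log2 CPM of each member was correlated with the mean log2 CPM of each of 11 marker lists across 18 libraries, as deviations from the group means, with a permutation test of the 66 pairs. Differences between males and females were left in these deviations. After Benjamini-Hochberg adjustment 0 pairs stayed under 0.05, and 8 pairs had an unadjusted p-value under 0.05. Those not printed in full below were Tmem63a with endothelial (r = 0.53) and Tmem63c with macrophage markers (-0.53). The rest were Tmem63b and Tmem120a with large-diameter neuron markers (0.49 and -0.51) and Tmem120a with skeletal muscle markers (-0.48). Piezo1 and the endothelial markers had Pearson r = 0.24 (permutation p = 0.373, adjusted p = 0.925) and Spearman rho = 0.27 (permutation p = 0.313, adjusted p = 0.841), and r = 0.18 without the 2 libraries farthest from the median. Piezo2 and the endothelial markers had r = -0.57 (permutation p = 0.0247, adjusted p = 0.366) and rho = -0.52 (permutation p = 0.041, adjusted p = 0.688), and r = -0.51 without the 2 farthest libraries. Piezo2 and the nociceptor markers had r = 0.56 (permutation p = 0.0257, adjusted p = 0.366) and rho = 0.52 (permutation p = 0.042, adjusted p = 0.688), and r = 0.60 without the 2 farthest libraries. Both were higher in males than in females, with 402 and 365 CPM for Piezo2 and 2626.5 and 2473.8 CPM for the summed nociceptor markers. The part of sex in this r was not tested. Piezo2 and the large-diameter neuron markers had r = 0.19 (permutation p = 0.496, adjusted p = 0.979), and r = 0.52 without the 2 farthest libraries. Tmem63b and the macrophage markers had r = -0.60 (permutation p = 0.011, adjusted p = 0.366) and rho = -0.65 (permutation p = 0.00613, adjusted p = 0.405), and r = -0.57 without the 2 farthest libraries.

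The genes most like each member across mice were listed among 15797 genes by Pearson r of the same deviations over 18 libraries, as a description. The 5 genes nearest to Piezo1 were Dse (r = 0.89), Trank1 (0.83), Stox2 (0.80), Ythdf3 (0.79) and Abce1 (0.77). None of these 5 was called between fracture and sham, beside 2.92% of all genes, and their log2 fold changes there ranged from -0.07 to 0.37. The 5 nearest to Piezo2 were Robo2 (0.89), Dock11 (0.86), L1cam (0.85), Phf24 (0.85) and Sorl1 (0.85). Of these 5, L1cam was called between fracture and sham (log2 fold change 0.13, adjusted p = 0.0406 in edgeR). Nearest to Tmem63c were Synj1 (0.88), Frmpd4 (0.88) and Psd3 (0.87), to Tmem63a Rpl4 (0.80), Fam181b (0.79) and Akap1 (0.79), to Tmem63b Plaat3 (0.80), Hmgcs1 (0.79) and Mapre1 (0.77), and to Tmem120a Set (0.86), Rab38 (0.85) and Cnn3 (0.85). All libraries of a group share their treatment, and the points share the depth and composition of each library.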

How the data were processed

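Poly(A) RNA-seq libraries (TruSeq Stranded) were made from 18 mice. The authors deposited read counts per gene without normalization, and FPKM values that the authors normalized for transcript length and mapped fragments. The submitters' processing notes name cutadapt 1.10, FastQC, HISAT2, StringTie and build mm10, while the program and strand setting of the counting are not given in the sources used here. The table's control columns, named Con, were read as the Sham mice by sex and number, and 0 columns of per-sample values were left unused.

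The counts were fitted with edgeR 4.0.16 under R 4.3.3 (filterByExpr with a minimum count of 10 and a minimum total of 15, TMM scaling, robust quasi-likelihood fits) on the 12 libraries of each pair of groups with sex as a covariate, and on 18 libraries with group as a covariate for sex. Scripts were tested on simulated data. Two-sided p-values were Benjamini-Hochberg adjusted over all genes tested and called under 0.05. Each mouse is 1 replicate. DESeq2 1.42.0, limma 3.58.1, other filters and scalings, a replicate block and leaving out each library were alternatives. Permutation tests of correlations used 100000 permutations within groups, on log2 CPM with a prior count of 2.

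The members, the 3 pathway lists and the 11 marker lists were chosen with earlier results of these data known. Of each list, the genes called in a comparison are named, at most the 4 with the smallest p, and the genes most like a member are 5 for Piezo1 and Piezo2 and 3 for each other member, with a mean of at least 1 CPM. Promoter windows came from RefSeq and overlaps from GENCODE M21.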

Additional observations from a re-analysis of the deposited data

How the results depend on the processing

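The members' calls were most fragile in fracture plus PDX against sham. There the 2 members called became 1 without a filter on low counts and with the replicate block, and 0 with limma on FPKM at a pseudocount of 1 or 0.1 on the log2 scale, and 0 to 2 when 1 library was left out. Genes called there, 925 in edgeR, were 1579 with DESeq2, 486 with the replicate block, 347 and 457 with limma at pseudocounts of 1 and 0.1, and 498 to 1008 without 1 library. In fracture against sham the 603 genes called were 1476 with DESeq2, 118 with the replicate block, 121 and 177 with limma at these pseudocounts, and 213 to 710 without 1 library. The count of members called, 1, was Piezo1 in each of these fits, and since Piezo1 was selected on this contrast nothing is read from that. In fracture plus PDX against fracture, the 0 genes called were 21 with DESeq2 and 0 to 1 without 1 library, the 1 gene appearing without Fracture+PDX female replicate 3. The cause of these differences was not tested.

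Whether replicate numbers pair the mice is not given in the sources used here, and low correlations cannot show that they do not. Deviations of same-numbered mice correlated at -0.0286 to 0.0515 between sham and fracture, -0.0705 to 0.126 between fracture and fracture plus PDX and -0.0705 to 0.0634 between sham and fracture plus PDX. With the replicate block, Piezo1 in fracture plus PDX against sham had an adjusted p = 0.0805 in edgeR.

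Signs turned only for values near 0, each time when 1 library was left out. Tmem63a between fracture and sham became -0.052 without Sham female replicate 3, in a range from -0.052 to 0.112 when 1 library was left out. In fracture plus PDX against fracture, Tmem63a became -0.0013 without Fracture+PDX male replicate 2, in a range from -0.0013 to 0.126, and Piezo2 became 0.0171, 0.0058 and 0.01 without Fracture male replicate 3, female replicate 2 or female replicate 3, and 0.01 and 0.0093 without Fracture+PDX female replicate 2 or 3, in a range from -0.0427 to 0.0171. Between males and females, Tmem63a became 0.0034 without Sham female replicate 1 and 0.0161 without Fracture+PDX male replicate 3, in a range from -0.101 to 0.0161. Of the log2 fold changes of members and other single values under all alternatives, 493 kept direction and side of the threshold, 20 lost a call and 9 turned. The interactions were recomputed with DESeq2 alone.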
